A study of Mus musculus with 3 samples.

Results

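The Toll-like receptor genes Tlr1 to Tlr9 and the adaptor gene Myd88 were followed in bone marrow hematopoietic stem and progenitor cells (HSPCs) of control mice. The 10 genes were taken by symbol, not by their values, from the 24421 gene entries of the count files, and all 10 had an entry. The 3 libraries, titled UCK control and numbered 1 to 3 as in their titles, came from C57BL/6 mice of the genotype Cicflox/flox + tamoxifen, so every mouse carried floxed alleles of Capicua, a transcriptional repressor, and had received the oestrogen receptor ligand tamoxifen. The labels name no Cre transgene, no age and no sex for them, and do not say whether each library came from its own animal. The cells had been enriched through c-Kit on beads and sorted as lineage-negative, c-Kit-positive and Sca-1-positive. The study set 2 mouse groups against each other, of which the control mice are described, with the other group not analysed here and no contrast between genotypes.

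Toll-like receptors recognise molecules of microbes. Tlr1, Tlr2, Tlr4, Tlr5 and Tlr6 act at the cell surface on lipids, lipoproteins and flagellin, whereas Tlr3, Tlr7, Tlr8 and Tlr9 act in endosomes on nucleic acids. Each carries a cytoplasmic TIR domain, and all except Tlr3 signal through Myd88, which recruits IRAK kinases and TRAF6 and leads to activation of NF-kB and of interferon regulatory factors. They are best known from macrophages, dendritic cells, neutrophils and B cells, but blood stem and progenitor cells also carry some of them, and their ligands can push such progenitors towards myeloid fates.

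Gene counts came to between 25097769 and 30718562 per library. Values are given as counts per 1000000 gene counts (CPM), and, where genes are compared with each other, as CPM per kilobase of annotated exons. A gene without a count in a library lay below 0.0977 to 0.120 CPM there, the level of 3 counts, and such floors cover counting error only. The genes of the sort markers were high, with 826 ± 71.0 CPM of Kit and 103 ± 9.50 CPM of the Sca-1 gene Ly6a (SD, n = 3). All 10 HSPC markers averaged 1 CPM or more. In such bulk samples, fewer cells of a type and less RNA per cell cannot be told apart.

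Control HSPCs held mRNA of most Toll-like receptors, with Tlr7 the most abundant, then Tlr4, Tlr2, Tlr3 and Tlr6. Of the 10 genes, 7 reached a mean of 1 CPM, or 70.0%, against 53.1% of all gene entries. Tlr1, Tlr5 and Tlr8 stayed below it, and Tlr1 and Tlr5 had no count at all in library 1. The 9 receptor genes together summed to 96.0, 79.4 and 78.4 CPM in libraries 1, 2 and 3. Tlr7 and Tlr4 made up 73.4%, 72.8% and 67.6% of these receptor counts.

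**Figure D1:**
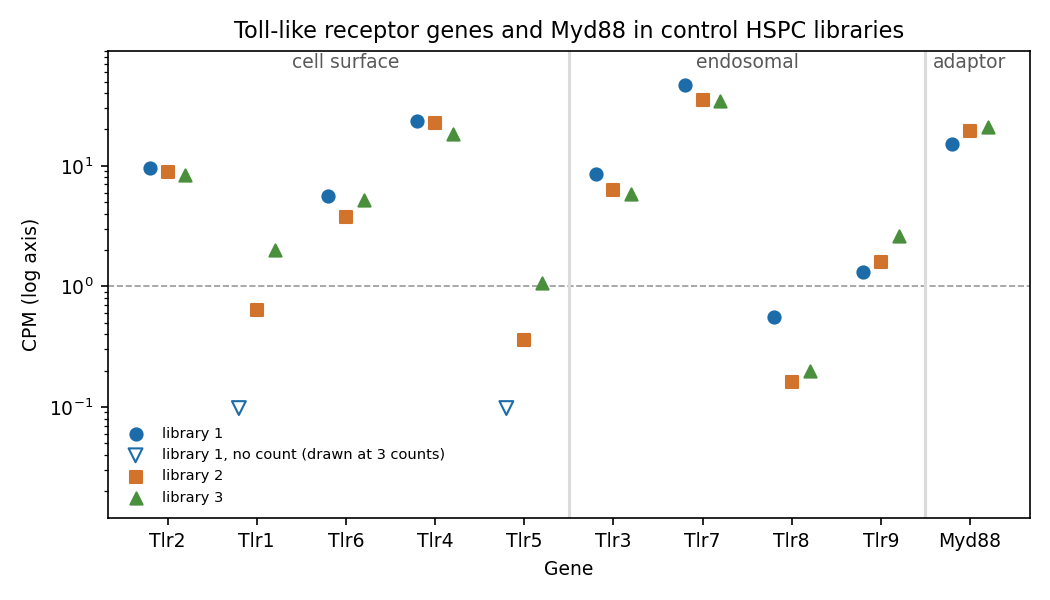
CPM on a log axis of each Toll-like receptor gene and of Myd88 in libraries 1, 2 and 3, with surface receptors on the left, endosomal receptors in the middle and the adaptor on the right. Filled points are measured values, open triangles mark libraries without a count and are drawn at the level of 3 counts, and the dashed line is 1 CPM. Tlr7 lay highest in every library, and Tlr1 and Tlr5 had no count in library 1.

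Tlr2 and its partners Tlr1 and Tlr6 recognise bacterial lipoproteins, Tlr2 with Tlr1 those with 3 acyl chains and Tlr2 with Tlr6 others. Tlr2 (chromosome 3, 83836272 to 83841767, minus strand, GRCm38 coordinates from GENCODE M21, as for all genes here) gave 293 counts in library 1, 222 in library 2 and 254 in library 3, or 9.54, 8.85 and 8.46 CPM. It was the steadiest of the 10 genes, with an SD of 0.547 around a mean of 8.95 CPM. Its counts did not depart from read-counting noise between the libraries (chi-square test, Benjamini-Hochberg adjusted p = 0.386). Tlr6 (chromosome 5, 64952031 to 64960097, minus strand) had 173, 95 and 157 counts, or 5.63, 3.79 and 5.23 CPM, with a mean of 4.88 ± 0.971 CPM. It was lowest in library 2 (adjusted p = 0.00811 by the same test, and 0.560 without library 2).

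Tlr1 (chromosome 5, 64924679 to 64933563, minus strand) had 0, 16 and 60 counts in libraries 1, 2 and 3, or 0, 0.638 and 2.00 CPM. The 3 libraries thus spread from below detection to a value at least 20.5-fold above the floor of library 1. The mean was 0.878 ± 1.02 CPM, and it was 1.32 CPM without library 1 and 0.319 CPM without library 3. Of the reads assigned to Tlr1 or Tlr6, Tlr6 held 100%, 85.6% and 72.4% in libraries 1, 2 and 3.

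Tlr1 and Tlr6 are neighbouring genes with similar sequences, which bears on their counts. Their coding sequences of 2385 and 2418 bases are 72.2% identical over 2432 aligned columns, but identity is 54.2% over the opening stretch when Tlr1 is cut into 3 equal parts, 72.6% over the middle one and 91.0% over the closing one. The longest identical run is 229 bases. Of the 50-base words in Tlr1 transcripts 15.4% occur in transcripts of other genes, most of them in Tlr6, and for Tlr6 this share is 12.3%. Reads from such stretches can have more than 1 best place, and the files list non-unique alignments apart from the genes. The counts of both genes are therefore uncertain. The stretch where the long identical run ends shows how little separates the genes there. In the lines below it is given 5′ to 3′ on the coding strand, from coding position 1637 to 1756 of Tlr1 (chr5:64925477-64925596) and from 1676 to 1795 of Tlr6 (chr5:64953768-64953887), GRCm38 transcripts of GENCODE M21, with positions counted from 1 at the A of the start codon. Capitals mark the 2 bases of 120 that differ.
Tlr1: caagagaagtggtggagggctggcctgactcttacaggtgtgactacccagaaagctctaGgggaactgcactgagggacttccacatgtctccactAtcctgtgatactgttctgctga
Tlr6: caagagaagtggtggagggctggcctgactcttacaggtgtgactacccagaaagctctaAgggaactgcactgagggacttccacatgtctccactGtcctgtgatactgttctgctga

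Tlr4, the receptor for bacterial lipopolysaccharide, was the most abundant surface receptor. Tlr4 (chromosome 4, 66827584 to 66930284, plus strand) gave 728 counts in library 1, 572 in library 2 and 553 in library 3, or 23.7, 22.8 and 18.4 CPM. The mean was 21.6 ± 2.83 CPM, and library 3 lay below the other libraries, by more than read-counting noise (chi-square test, adjusted p = 3.0e-05, and 0.553 without library 3). Tlr5, the flagellin receptor (chromosome 1, 182954788 to 182976044, plus strand), had 0, 9 and 32 counts, or 0, 0.359 and 1.07 CPM. As for Tlr1, library 3 was highest, at least 10.9-fold above the floor of library 1, and the mean of 0.475 ± 0.542 CPM became 0.712 CPM without library 1 and 0.179 CPM without library 3.

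A gene without a count in some library and with at least 1 CPM in another was rare. This pattern was not a planned measure and is the one that Tlr1 and Tlr5 showed, so the shares given here test nothing. There were 76 such genes among the 17328 genes with a count, or 0.439%. Tlr1 and Tlr5 were among them, 2 of the 10 genes described here. Among the 2645 genes with a mean of 0.25 to 2 CPM, a range chosen after the values were seen, the share was 2.87%, against 2 of the 4 receptor genes in that range. Such genes were not concentrated in 1 library, as 30, 32 and 30 of them had no count in libraries 1, 2 and 3. A gene without a count in more than 1 library is included for each. Library 1 had the fewest genes with a count, 15798, against 16159 and 16410 in libraries 2 and 3, though the highest gene total. The Rn45s entry held 11.8% of its gene counts, against 8.20% and 7.91%. A link of these values to Tlr1 and Tlr5 was not tested. Tlr1 and Tlr5 were not among the genes tested, which needed a mean of 1 CPM. With that minimum dropped, their counts departed from read-counting noise (chi-square test, adjusted p = 2.6e-15 and 2.9e-08), and edgeR gave unadjusted p = 0.00837 and 0.0541 for a spread above that of genes of similar abundance, or 0.671 and 0.908 after adjustment. Without library 1, Tlr1 passed the minimum of 1 CPM only because its count of 0 was left out and library 3 was high. Its counts then differed between libraries 2 and 3 (chi-square test, adjusted p = 8.1e-05), which is no separate support.

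The promoters of these genes are shown because both genes had no count in the same library. Both windows run from 250 bases before to 50 after the start, 5′ to 3′ on the gene's strand, from RefSeq on GRCm38.p6 (Tlr1 at chr5:64933509-64933808, minus strand, the upstream one of its 2 starts, and Tlr5 at chr1:182954538-182954837, plus strand). Capitals mark matches on either strand to GAGGAA, a form of the core bound by ETS factors such as PU.1, to GGGANNNNCC, a loose NF-kB pattern, or to GAAANNGAAA, a loose interferon response pattern.
Tlr1: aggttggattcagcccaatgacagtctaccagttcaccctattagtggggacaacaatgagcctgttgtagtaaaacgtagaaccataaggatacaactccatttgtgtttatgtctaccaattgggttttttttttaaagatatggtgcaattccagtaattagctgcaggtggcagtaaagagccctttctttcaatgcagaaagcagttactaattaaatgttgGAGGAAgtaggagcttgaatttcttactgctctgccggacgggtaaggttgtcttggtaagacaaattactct
Tlr5: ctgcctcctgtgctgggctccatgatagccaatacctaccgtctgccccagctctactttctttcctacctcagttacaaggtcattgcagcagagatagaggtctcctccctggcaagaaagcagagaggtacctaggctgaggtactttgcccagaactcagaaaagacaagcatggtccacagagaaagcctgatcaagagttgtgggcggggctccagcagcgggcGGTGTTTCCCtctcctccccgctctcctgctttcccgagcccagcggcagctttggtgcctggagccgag

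The Tlr1 window holds GAGGAA once and the Tlr5 window GGGANNNNCC once, and they share none of the 3 patterns. In all, 8 of the 10 genes matched the promoter table, with 10 windows. GAGGAA lies in 3 of the 10 windows (Tlr1, Tlr8, Tlr9) and in 28.3% of all 32851 windows of this length. GGGANNNNCC lies in 3 (Tlr2, Tlr3, Tlr5) and in 20.7% of all. GAAANNGAAA lies in 2 (Tlr6, Myd88) and in 3.44% of all. These matches describe letters and not binding.

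The endosomal receptors were led by Tlr7, which recognises RNA rich in guanosine and uridine. Tlr7 (chromosome X, 167304929 to 167330558, minus strand) gave 1435 counts in library 1, 879 in library 2 and 1038 in library 3, or 46.7, 35.0 and 34.6 CPM. Library 1 lay above the other libraries, which lay close together, and the mean was 38.8 ± 6.89 CPM. This was the clearest departure from read-counting noise among the tested genes of the group (chi-square test, adjusted p = 1.1e-15), and it rested on library 1, since libraries 2 and 3 alone gave an adjusted p of 0.831. Tlr8, its closest relative and a sensor of RNA in human cells, lies beside it on the X chromosome (167242696 to 167264329, minus strand) but had 17, 4 and 6 counts, or 0.553, 0.159 and 0.200 CPM. All 3 libraries were thus below 1 CPM, with a mean of 0.304 ± 0.217 CPM.

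Tlr3, the receptor for paired RNA strands, signals through Ticam1 in place of Myd88. Tlr3 (chromosome 8, 45395665 to 45411080, minus strand) had 262, 157 and 175 counts, or 8.53, 6.26 and 5.83 CPM, with a mean of 6.87 ± 1.45 CPM. It was highest in library 1, like Tlr7 (adjusted p = 0.000180), and without that library the departure was not called (adjusted p = 0.611). An antisense transcript, Gm45542, covers 381 exonic bases of Tlr3, and reads there could not be told apart without a stated strand setting. Tlr9, which recognises unmethylated CpG DNA (chromosome 9, 106222598 to 106226883, plus strand), had 40, 40 and 79 counts, or 1.30, 1.59 and 2.63 CPM, with a mean of 1.84 ± 0.698 CPM. Library 3 was the high one (adjusted p = 0.000596, and 0.434 without it). Endosomal receptors held 59.5%, 54.2% and 55.1% of receptor counts by library. Their 95% binomial intervals (Clopper-Pearson, exact) ran from 57.7 to 61.3% in library 1, from 51.9 to 56.4% in library 2 and from 53.1 to 57.2% in library 3. Per length the shares were 60.4%, 55.3% and 55.5%.

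Myd88, the shared adaptor, lay between Tlr7 and Tlr4 in mean CPM per kilobase, and below both in mean CPM. Myd88 (chromosome 9, 119335934 to 119341411, minus strand) gave 470 counts in library 1, 492 in library 2 and 634 in library 3, or 15.3, 19.6 and 21.1 CPM. The mean was 18.7 ± 3.02 CPM, and library 1 was the low one, the reverse of Tlr7 and Tlr3 (chi-square test, adjusted p = 8.5e-07). Without library 1 the departure was not called (adjusted p = 0.303). The gene shares 290 exonic bases with Acaa1a on the opposite strand, so part of its reads could have been counted as ambiguous.

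**Figure D2:**
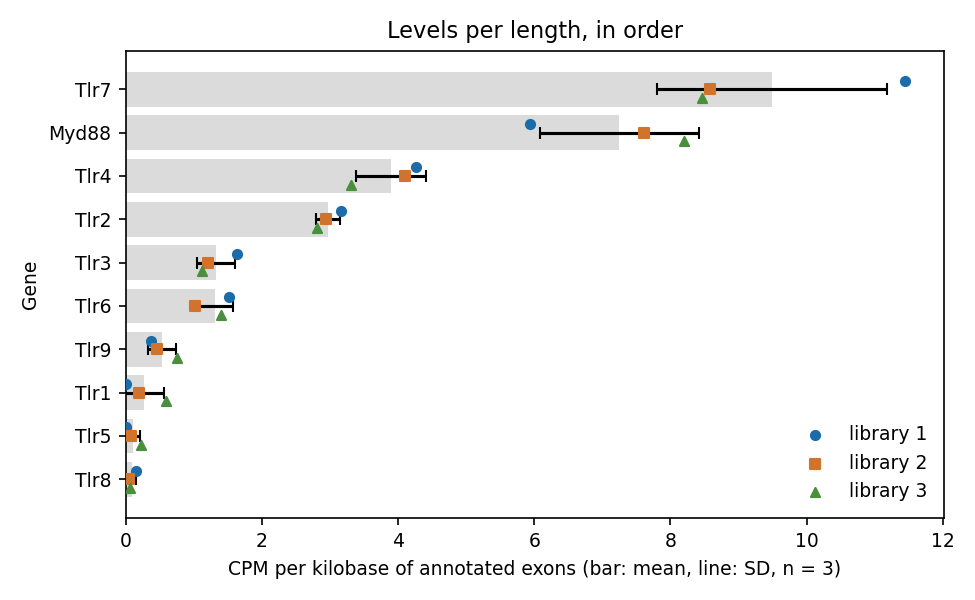
CPM per kilobase of annotated exons, from the highest to the lowest gene. Bars are means over 3 libraries, lines are SD and points are the libraries. The mean ± SD bars of Tlr7 and Myd88 overlapped, although the lowest Tlr7 library (8.47) lay above the highest Myd88 library (8.20), Tlr4 and Tlr2 followed, and Tlr1, Tlr5 and Tlr8 lay near 0.

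Per kilobase, the genes ranked Tlr7, Myd88, Tlr4, Tlr2, Tlr3, Tlr6, Tlr9, Tlr1, Tlr5 and Tlr8. The levels were 9.50 ± 1.69, 7.25 ± 1.17, 3.89 ± 0.509 and 2.97 ± 0.182 CPM per kilobase for the first 4, and 1.32 ± 0.279 and 1.31 ± 0.260 for Tlr3 and Tlr6. Tlr9 lay at 0.530 ± 0.201, Tlr1 at 0.263 ± 0.305, Tlr5 at 0.0991 ± 0.113 and Tlr8 at 0.0848 ± 0.0605. Tlr7 stood at percentile 71.3 of all genes with a count and an annotated length, Myd88 at 64.7, Tlr4 at 51.3 and Tlr8 at 13.1. Of the 9 pairs of neighbours in this order, 6 were apart, meaning the same sign in 3 of 3 libraries and a mean log2 ratio larger than its SD. The largest steps were from Tlr2 to Tlr3 (mean log2 ratio of CPM + 0.5 per kilobase 1.16, SD 0.19) and from Tlr6 to Tlr9 (1.12, SD 0.48). The exact two-sided sign-flip permutation test gave p = 0.25 for each of the 6 pairs, the smallest that 3 libraries allow, and 0.321 after adjustment over the 9 pairs.

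The pairs Tlr7 with Myd88, Tlr3 with Tlr6 and Tlr5 with Tlr8 did not separate beyond their spread per kilobase. For Tlr7 over Myd88 the log2 ratios were 0.92, 0.16 and 0.03 in libraries 1, 2 and 3 (mean 0.37, SD 0.48). Without library 1 this ratio was 0.10 and without library 3 it was 0.54. In both cases it then exceeded its SD, but only slightly and with 2 values each. The step from Tlr9 to Tlr1 (0.96, SD 0.77) fell within its SD without library 2, at 1.03. The Tlr1 and Tlr5 ratios depend on the 0.5 CPM added, since both genes had no count in library 1.

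Differences between the libraries were larger than read-counting noise for most of the genes, as for most genes of the genome. By the chi-square test 6 of the 7 tested genes were called, all but Tlr2, against 82.6% of the 12965 genes tested. Without library 1 the calls were 4 of 8, against 51.4% of all genes then tested. Tlr1 is among these 4 and these 8, having entered because its count of 0 was left out. Without library 2 they were 5 of 7, against 67.3%, and without library 3 they were 4 of 7, against 64.4%. With no minimum level the calls were 9 of 10, against 73.9% of all genes with a count, and with a minimum of 5 CPM they were 4 of 5, against 84.4%. Each of the 6 genes lost its call without 1 of the libraries. Tlr3, Tlr7 and Myd88 lost it without library 1, Tlr6 without library 2, and Tlr4 and Tlr9 without library 3. Calls also fell among all genes tested with a library left out, and the share of all called genes that lost theirs was not computed. None of the 7 was more variable than genes of similar abundance in edgeR's quasi-likelihood fit (0 of 7, adjusted p from 0.984 to 0.999, against 0.00771% of genes tested), none had an unadjusted p under 0.05, against 5% of all genes, and DESeq2 marked none as a dispersion outlier, against 0.247% of genes. The unadjusted p was lowest for Tlr7, at 0.213, and highest for Tlr2, at 0.924. The median SD of log2(CPM + 0.5) over the 7 genes was 0.24, and over all genes tested 0.19. The genes did not move together across the libraries, since 6 of 10 were highest in library 1 (Tlr2, Tlr3, Tlr4, Tlr6, Tlr7 and Tlr8) and 4 of 10 in library 3 (Tlr1, Tlr5, Tlr9 and Myd88). Of all tested genes, 31.9% were highest in library 1 and 32.5% in library 3. Library 2 was highest for 0 of the 10 genes, against 35.6% of all tested genes. The 10 genes include Tlr1, Tlr5 and Tlr8, which were not tested. Of the 7 tested, Tlr2, Tlr3, Tlr4, Tlr6 and Tlr7 were highest in library 1, and Tlr9 and Myd88 in library 3.

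**Figure D3:**
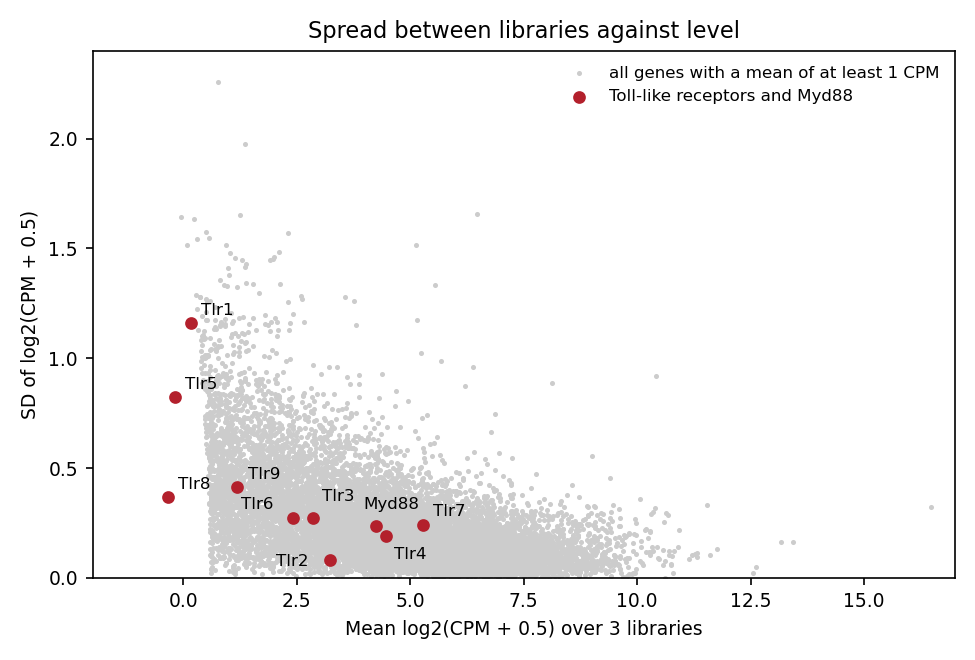
SD of log2(CPM + 0.5) over the 3 libraries against its mean, in grey for the 12965 genes averaging 1 CPM or more and in red for the 10 genes described here. Tlr1 and Tlr5 had the highest SDs of the 10, 1.16 and 0.82, and Tlr2 the lowest, 0.08.

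Mature blood cells also express these receptors, and their marker genes moved between the libraries too. The 10 macrophage and monocyte markers summed to 64.3, 72.3 and 108 CPM in libraries 1, 2 and 3, with 5 of 10 at a mean of 1 CPM and Adgre1 and C1qa at 0.288 and 0.114 CPM. This sum was highest in library 3, like Tlr1, Tlr5, Tlr9 and Myd88. The 10 neutrophil markers summed to 208, 72.9 and 129 CPM, with 8 of 10 at 1 CPM, a sum highest in library 1. Tlr2, Tlr3, Tlr4, Tlr6, Tlr7 and Tlr8 were also highest in library 1. Tlr9 and Myd88 were lowest there, and Tlr1 and Tlr5 had no count there. The 7 plasmacytoid dendritic cell markers summed to 27.7, 43.7 and 41.9 CPM (6 at 1 CPM, Klk1 without a count), the 7 conventional dendritic cell markers to 16.6, 18.1 and 21.3 CPM (5 at 1 CPM), and the 8 B cell markers to 77.4, 83.5 and 94.1 CPM (all 8 at 1 CPM). Tlr7 was highest in library 1, where the dendritic and B cell sums were lowest. Of the markers in these sums, only Pacsin1, Ms4a1 and Batf3 were highest there, like Tlr7. In libraries 1, 2 and 3 Pacsin1 had 2.83, 0.916 and 0.599 CPM, Ms4a1 2.51, 1.24 and 0.366 CPM, and Batf3 0.391, 0.0797 and 0.0999 CPM. The 9 T and NK cell markers summed to 104 to 124 CPM (4 at 1 CPM) and the 8 stromal and endothelial markers to 111 to 127 CPM (3 at 1 CPM, Col3a1 and Adipoq without a count), the last sum mostly Pecam1. The part of these cells in the receptor values was not tested.

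By distance in log2(CPM + 0.5) over the 3 libraries, the genes most like Tlr7 were Vbp1 (distance 0.090), Cln3 (0.091) and Haus5 (0.092). Those most like Myd88 were 4930478L05Rik (0.057), Srsf9 (0.070) and 1110038F14Rik (0.078). With 3 libraries, this likeness mostly reflects a similar level.

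The rest of the pathway was measured with 69 genes in 10 lists, of which 58 reached a mean of 1 CPM, or 84.1%, against 53.1% of all gene entries. The median pathway gene lay at 26.8 CPM and the median of all entries at 1.73 CPM. Of the 58, 48 differed between libraries by the chi-square test (82.8%, against 82.6% of all genes tested), and 0 were more variable than genes of similar abundance after adjustment in edgeR, against 0.00771% of all genes tested. At an unadjusted p under 0.05 there were 6 of 58, against 5% of all genes tested. Values below are mean CPM ± SD over the 3 libraries.

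The accessory proteins of the surface receptors were uneven. Cd180, a relative of the Toll-like receptors that works with Ly86, was at 111 ± 21.1 CPM, and at 24.6 CPM per kilobase it lay above every Toll-like receptor. Ly86 was at 15.03 ± 5.32 CPM and Lbp, which carries lipopolysaccharide in serum, at 54.4 ± 3.92 CPM. Cd14, which hands lipopolysaccharide to the Tlr4 complex, had 0, 6 and 12 counts in libraries 1, 2 and 3, or 0.213 ± 0.201 CPM, and so was also without a count in library 1. Ly96, the partner of Tlr4 in lipopolysaccharide binding, named after its values were seen, had 10.1, 6.41 and 6.16 CPM, highest in library 1 like Tlr4. Of the 6 genes of this list 4 reached 1 CPM.

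All 4 genes of receptor folding and transport reached 1 CPM. Hsp90b1, the chaperone gp96 that most of these receptors need for folding, was at 1088 ± 252 CPM, Unc93b1, which brings the endosomal receptors from the endoplasmic reticulum, at 54.7 ± 6.44 CPM, and the chaperone partner Cnpy3 at 49.6 ± 3.87 CPM. Cnpy4 was the lowest, at 26.8 ± 2.52 CPM. Endosomal receptors are cut by proteases before they signal, and 4 of 5 such protease genes reached 1 CPM. Ctsb was at 130 ± 7.13 CPM (12.1% of its 50-base words occur in other genes), Ctss at 43.5 ± 4.07 CPM, Ctsl at 25.5 ± 6.15 CPM (26.3% of words) and Ctsk at 0.627 ± 0.459 CPM.

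The other adaptors were expressed beside Myd88. Ticam2, the bridge from Tlr4 to Ticam1, was at 37.0 ± 2.88 CPM (14.7% of its words occur in other genes), Ticam1, the adaptor TRIF of Tlr3 and Tlr4, at 30.3 ± 1.39 CPM and Tirap, the bridge from Tlr2 and Tlr4 to Myd88, at 19.3 ± 1.53 CPM. Sarm1, an adaptor relative best known from neurons, was at 0.234 ± 0.0358 CPM. Per kilobase, Ticam1 lay at 10.1, Ticam2 at 6.39 and Tirap at 3.92 CPM, against 7.25 for Myd88.

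All 16 genes of kinases and ubiquitin enzymes below Myd88 reached 1 CPM. Tab2, a subunit of the TAK1 kinase complex, was at 351 ± 3.63 CPM, the receptor-proximal kinase gene Irak1 at 179 ± 15.5 CPM and the ubiquitin ligase gene Traf6 at 154 ± 20.1 CPM, with Tab1 lowest at 9.46 ± 1.41 CPM. All 8 transcription factor genes did as well. Nfkb1 was at 125 ± 5.49 CPM, Rel, which encodes c-Rel, at 93.5 ± 17.98 CPM, Irf3 at 47.7 ± 3.85 CPM and Relb lowest at 2.54 ± 0.996 CPM. The 8 inhibitor genes all passed, too. The deubiquitinase gene Cyld was at 115 ± 9.18 CPM, Tollip at 59.2 ± 10.5 CPM, Otud7b at 56.6 ± 1.18 CPM and Nfkbia, which encodes the NF-kB inhibitor IkBa, lowest at 14.8 ± 0.784 CPM.

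Myd88 also serves receptors of the interleukin-1 family, and all 6 such genes reached 1 CPM. Il1r1, the interleukin-1 receptor gene, was at 188 ± 16.6 CPM, Il18rap at 114 ± 8.25 CPM, Il18r1 at 24.4 ± 8.45 CPM and Il1rl2 at 7.07 ± 2.65 CPM. Per kilobase, Il1r1 at 29.5 and Il18rap at 16.9 CPM lay above Tlr7, at 9.50. The mouse receptor genes outside the group were low. Tlr12 was at 1.95 ± 0.850 CPM, Tlr13 at 0.697 ± 0.0449 CPM and Tlr11 at 0.278 ± 0.189 CPM.

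Cytokine genes that Toll-like receptor signals induce in mature cells were mostly low in CPM. Ccl3 was at 28.4 ± 7.97 CPM, Ccl4 at 8.65 ± 4.59 CPM and Tnf at 5.14 ± 2.31 CPM, while Cxcl1 had no count in any library. Of the 9 genes 4 reached 1 CPM. Per kilobase, Ccl3 at 37.0 and Ccl4 at 13.1 CPM lay above Tlr7, at 9.50, and Tnf lay below it, at 3.14. Their sum was 38.1, 33.2 and 59.8 CPM by library, with library 3 the high one.

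**Figure D4:**
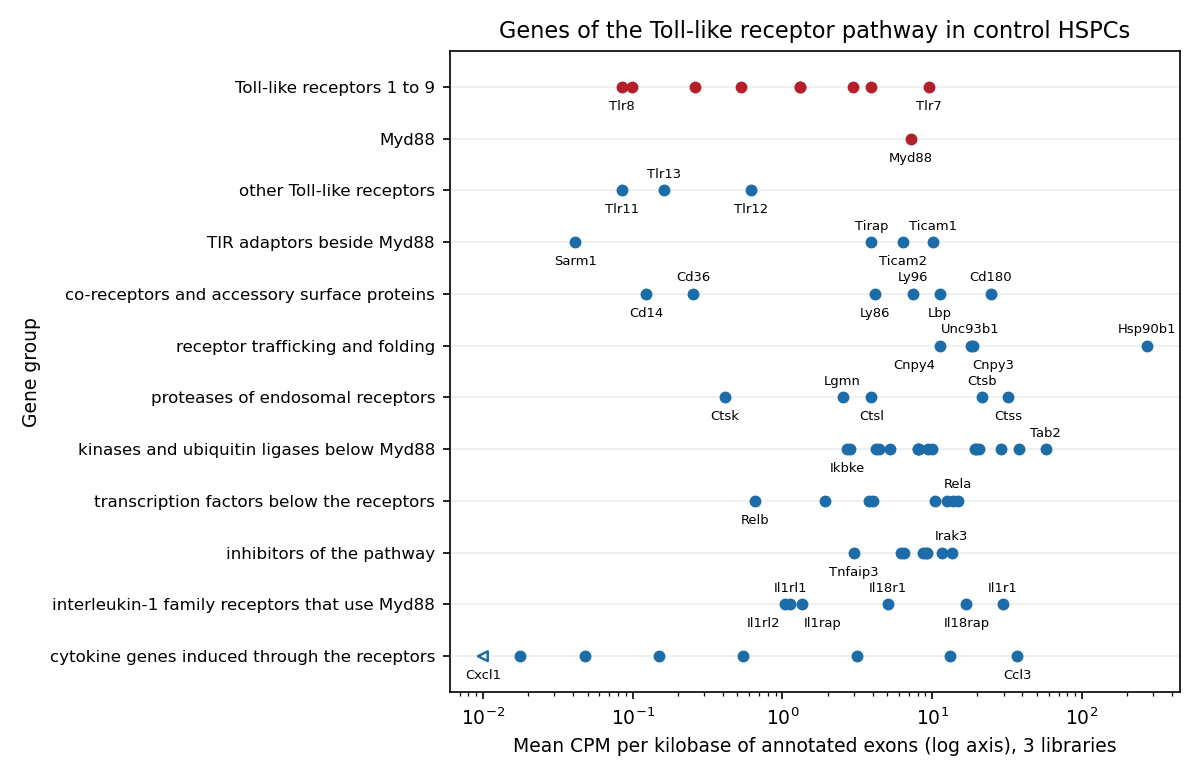
Mean CPM per kilobase of annotated exons, on a log axis, of the Toll-like receptors, Myd88 and the genes of 10 pathway lists, with 1 point per gene. Open triangles at the left edge are genes too low to be drawn at their value, namely Cxcl1, without a count, and Il12b, at 0.00564. These 2 overlap. The highest gene is Hsp90b1, and Cd180, Il1r1, Il18rap, Ccl3 and Ccl4 are among the genes to the right of Tlr7.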

How the data were processed

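Per the labels' protocols, RNA of sorted HSPCs was amplified with the NuGEN Ovation system from poly(A) and random primers and sequenced on an Illumina HiSeq, so reads are not independent molecules. Each deposited file lists, by gene symbol, whole-number read counts with no normalization. Tools credited per the submitters' processing notes are HTSeq, DESeq2 and TopHat2 2.0.9, with mm10 as build. No source used here gives the gene model or the strand setting. The 92 spike-in and 5 HTSeq category entries were left out. Category entries for alignments in no gene, not unique or ambiguous held 42.9% to 48.4%, 16.0% to 17.0% and 0.666% to 0.800% of all entries.

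Counts were divided by the total of gene counts (CPM). Genes averaging 1 CPM or more were tested between libraries by chi-square tests with 2 degrees of freedom, and for variability with edgeR 4.0.16 (quasi-likelihood, intercept only, robust, with an F test of the quasi-dispersion over its trend and the prior degrees of freedom of the bulk of genes), both Benjamini-Hochberg adjusted at 0.05. DESeq2 1.42.0 dispersion outliers were an alternative, with other scalings, minima, lengths and leaving out each library. Lengths and 50-base words came from GENCODE M21 (GRCm38, the assembly of mm10), with 95.7% of symbols matched. The p-values measure the spread between these libraries, which may be technical. The text names the 10 genes, up to 3 highest and the lowest gene of each pathway list, and the 3 genes nearest to Tlr7 and to Myd88. The genes and lists were chosen with earlier results of these data known. Software was R 4.3.3 and Python 3.11.15.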

Additional observations from a re-analysis of the deposited data

Results flagged for a closer look

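Spike-in RNA was counted in every library but enters no comparison. ERCC spike-ins held 0.567%, 0.325% and 0.233% of all entries in libraries 1, 2 and 3, far above the limit that a count of 0 allows, and library 1, where Tlr1 and Tlr5 had no count, had the highest share. The labels do not mention spike-ins, and no scaling by them was made.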

How the results depend on the processing

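No paired analysis was possible because the libraries form 1 group. The number of genes at 1 CPM, 7 in the report, was 7 or 8 under every alternative scaling and with each library left out. The number differing between libraries was 4 to 9 (9 of 10 without a minimum, against 73.9% of all genes, and 4 of 5 at 5 CPM, against 84.4%), and the number more variable than genes of similar abundance was 0 under every alternative. Leaving out a library gave 5 to 8 neighbours apart, against 6 of 9. Myd88 lay above Tlr4 per kilobase, but without length the log2 ratio was -0.21. For Tlr7 over Myd88 the log2 ratio was 0.37 per kilobase and 1.03 without length, where the pair counted as apart. Totals without Rn45s or without the 20 most abundant genes raised the median gene by 0.14 and 0.25 in log2. Of 70 alternative mean levels, 65 moved by less than 1 SD. For the levels with a library left out this was fixed in advance, as leaving out 1 of 3 values cannot move their mean that far. The levels that moved further were Tlr2 without Rn45s, and Tlr2, Tlr4, Tlr7 and Myd88 without the 20 most abundant genes. Depth limits Tlr1, Tlr5 and Tlr8 most, with at most 60 counts in a library.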
